A study of Mus musculus with 6 samples.

Results

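H3K79me2 domains of 20 to 50 kb that were present in every library of N2a cells were examined at their outer edges. Control cells were compared with cells depleted of NPM1. N2a is an established mouse neuroblastoma line. The cells carried either a control shRNA (CTR) or an shRNA against Npm1 (NPM1 KD), both from the pLKO.1 vector under puromycin selection, and were harvested on day 3 in vitro. The 2 ChIP-seq libraries per group were made from different passages and separate transfections of the same line. The 2 pooled inputs (1 per group) have no peak list used here. The domains were chosen by their merged width. The broad peaks of the 4 libraries on chromosomes 1 to 19 were merged wherever they shared 1 bp, which gave 49835 regions. Of these, 20216 held a peak of all 4 libraries and 16174 of the latter overlapped exactly 1 protein-coding gene of GENCODE mouse release 21. The 1966 regions among them with a width of 20000 to 49999 bp were the domains described here, and they lay in 1745 genes (176 genes held 2 or more, up to 5). The selection used the outermost position reached by any library and the presence of a peak in each, so widths and presence are a description and no result.

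H3K79me2 is laid down by DOT1L, the only known methyltransferase of lysine 79 of histone H3. DOT1L travels with elongating RNA polymerase II, so the mark usually begins close to the transcription start site (TSS) of an active gene, is highest in the first part of the gene body and fades along transcription. NPM1 is an abundant nucleolar phosphoprotein and histone chaperone that shuttles between nucleolus, nucleoplasm and cytosol. A domain therefore has a TSS-side edge, where the call of the mark begins, and a downstream edge, where the call ends along transcription. Either can be a break within a longer series of calls. The comparison asks whether loss of NPM1 moved either edge.

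The sequences below show the DNA at both kinds of edge. The first pair are strips that lay beyond the downstream edge of both CTR libraries and short of that of both NPM1 KD libraries. The second pair are such strips on the TSS side, and the last pair are the bases directly before a TSS at which the 4 libraries placed their edges close together. All are 200-base windows of the GRCm38 reference, written 5′ to 3′ on the strand of the gene, clear of every annotated exon, with CpG dinucleotides in capitals.
Gpr107, intron, chr2:31177070-31177269, plus strand: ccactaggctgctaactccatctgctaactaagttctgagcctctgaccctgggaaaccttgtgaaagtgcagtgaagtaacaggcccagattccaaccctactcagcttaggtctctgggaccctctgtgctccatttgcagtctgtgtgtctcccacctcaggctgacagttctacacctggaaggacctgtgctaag
Wee1, past the annotated gene end, chr7:110143867-110144066, plus strand: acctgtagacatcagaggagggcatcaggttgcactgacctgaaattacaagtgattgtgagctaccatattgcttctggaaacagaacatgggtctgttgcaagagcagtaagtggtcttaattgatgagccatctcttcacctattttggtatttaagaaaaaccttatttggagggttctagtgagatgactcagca
Wdr26, upstream of the TSS, chr1:181218837-181219036, minus strand: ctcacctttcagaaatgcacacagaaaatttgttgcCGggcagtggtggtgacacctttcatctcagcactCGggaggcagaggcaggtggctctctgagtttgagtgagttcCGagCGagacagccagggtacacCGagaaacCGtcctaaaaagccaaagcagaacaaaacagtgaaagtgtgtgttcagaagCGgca
Sos1, upstream of the TSS, chr17:80481708-80481907, minus strand: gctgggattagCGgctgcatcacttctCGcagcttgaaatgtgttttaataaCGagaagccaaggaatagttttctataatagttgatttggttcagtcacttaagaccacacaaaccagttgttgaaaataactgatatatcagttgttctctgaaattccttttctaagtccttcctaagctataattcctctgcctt
Cntn3, the bases before the TSS, chr6:102573102-102573301, minus strand: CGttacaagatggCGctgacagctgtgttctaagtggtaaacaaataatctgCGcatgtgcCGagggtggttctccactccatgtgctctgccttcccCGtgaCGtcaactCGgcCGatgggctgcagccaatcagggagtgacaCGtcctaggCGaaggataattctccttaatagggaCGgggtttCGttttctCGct
Top1, the bases before the TSS, chr2:160645688-160645887, plus strand: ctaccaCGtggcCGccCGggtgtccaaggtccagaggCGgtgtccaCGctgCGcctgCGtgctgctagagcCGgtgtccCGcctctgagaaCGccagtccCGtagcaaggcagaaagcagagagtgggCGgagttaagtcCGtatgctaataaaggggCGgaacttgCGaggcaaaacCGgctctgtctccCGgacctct
The downstream strips of Gpr107 and Wee1 held 0 CpG each, with a G and C content of 52.5% and 42.0%. The TSS-side strips held 7 (Wdr26) and 3 (Sos1), and the windows before the TSS held 13 (Cntn3) and 17 (Top1).

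The merged domains had a median width of 28888 bp and lay in genes with a median length of 68184 bp. The TSS was inside the merged domain in 1053 cases and outside it in 913. The annotated gene end was inside in 171. Where the TSS was inside, the merged TSS-side edge stood at a median of −761 bp from it (negative is upstream), and the downstream edge stood at a median of 61.3% of the gene length (5th to 95th percentile 14.2% to 111.5%). Most domains thus ended within their gene, and the mean downstream edge of the 4 libraries fell in an intron in 1488 domains, in an exon in 324 and outside the gene in 154. The TSS-side edge fell outside the gene in 938, in an exon in 427 and in an intron in 601.

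The surroundings of the sides differed. Downstream, another merged region followed after a median of 870 bp, and after less than 1 kb in 1093 domains (55.6%). On the TSS side the next region was a median of 20333 bp away, and less than 1 kb away in 457 domains (23.3%). The downstream edge was therefore often the end of 1 stretch of calls in a longer series, and the TSS-side edge more often faced DNA without a call.

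Before the results, the depth of the libraries has to be stated, since a call may reach farther out in a library with more reads. The background pileup recovered from the fold and p of the narrow peaks was taken as a stand-in for read number. It had medians of 11.9 (CTR 1), 7.65 (CTR 2), 8.99 (NPM1 KD 1) and 11.8 (NPM1 KD 2). CTR 1 and NPM1 KD 2 were thus alike and high, and CTR 2 was the lowest. The number of reads per library is unknown, so whether the pileup follows it was not checked. The part of depth in the positions below was not tested except by setting the libraries of higher and those of lower background side by side.

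Edges were expressed as bp outward from the mean position of the 4 libraries in the same domain, so that a positive value lies farther from the domain centre. On the downstream side the median position over the 1966 domains was 13.0 bp for CTR 1 and −142 bp for CTR 2. For NPM1 KD 1 and NPM1 KD 2 it was 106 and 63.4 bp. Both NPM1 KD libraries stood beyond both CTR libraries, and CTR 2 stood farthest in. The means of these medians were −64.6 ± 109.7 bp for CTR and 84.6 ± 30.1 bp for NPM1 KD (SD, n = 2 each), and the median difference over domains was 153 bp (quartiles −11.9 and 453 bp). The two-sided exact permutation test over the 4 libraries gave p = 0.333, the smallest p that this test can give with 2 libraries against 2, so it cannot pass 0.05 here. Such p-values only rank the observed grouping among the relabellings of the 4 libraries, and domains are not replicates.

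On the TSS side CTR 1 and CTR 2 had medians of 17.2 and −47.0 bp, and NPM1 KD 1 and NPM1 KD 2 had medians of 43.0 and −8.88 bp. Here the groups overlapped, because NPM1 KD 2 lay inside CTR 1. The means were −14.9 ± 45.4 bp for CTR and 17.1 ± 36.7 bp for NPM1 KD (SD, n = 2 each), the median difference over domains was 27.2 bp (quartiles −24.5 and 190 bp), and the exact permutation p was 0.667. Per domain, the downstream difference exceeded the TSS-side difference by a median of 90.2 bp. The corresponding library medians were 6.63 and −86.8 bp in CTR and 32.9 and 61.3 bp in NPM1 KD, with no overlap between groups (exact permutation p = 0.333).

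The edges were compared again between the libraries of higher background (CTR 1 at 11.9, NPM1 KD 2 at 11.8) and between those of lower background. The lower pair was not matched, since NPM1 KD 1 (8.99) stood above CTR 2 (7.65). Each pair also joins different replicate numbers. NPM1 KD 2 lay a median of 36 bp beyond CTR 1 downstream and −27.0 bp from it on the TSS side, that is, farther in. NPM1 KD 1 lay 234 bp beyond CTR 2 downstream and 90 bp beyond it on the TSS side. The downstream difference exceeded the TSS-side one by 53.5 bp in the first pair and by 114 bp in the second. The downstream edge was thus farther out in NPM1 KD in both pairs, by unlike amounts, whereas the TSS-side edge changed sign between the pairs. Between libraries of the same replicate number, NPM1 KD lay farther out on both sides, by 66.0 and 186 bp downstream and by 22.0 and 29.0 bp on the TSS side (numbers 1 and 2). Without CTR 2 the downstream median difference was 50.2 bp, the TSS-side one −4.5 bp and the excess of the first over the second, domain by domain, 33.0 bp. Without CTR 1 they were 231, 60.2 and 132 bp.

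**Figure D1:**
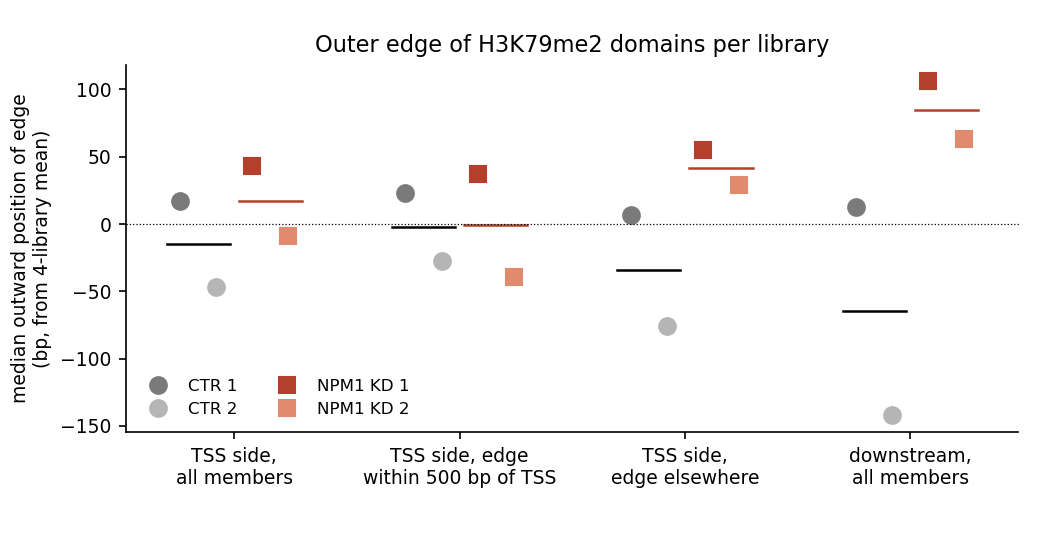
Median outward position of the edge in bp (vertical axis, relative to the mean of the 4 libraries in each domain) in CTR 1 and 2 (circles) and NPM1 KD 1 and 2 (squares), with the group mean as a line. Both NPM1 KD libraries sit above both CTR libraries downstream and at TSS-side edges away from the TSS, and the groups interleave at TSS-side edges within 500 bp of the TSS.

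Counted per domain, both NPM1 KD libraries reached beyond both CTR libraries downstream in 668 of 1966 domains (34.0%, exact 95% binomial interval 31.9% to 36.1%, for counting error only). Over all 16174 shared regions with 1 protein-coding gene, of any width, this share was 31.8%. The opposite order, both CTR libraries beyond both NPM1 KD libraries, was found in 136 domains (6.92%, against 7.35% over all). On the TSS side the counts were 525 (26.7%, against 30.4% over all) and 140 (7.12%, against 7.04% over all). The excess of the first order over the second on the TSS side rested on single libraries: it was 31.6% against 30.4% without CTR 2 and 36.1% against 34.4% without NPM1 KD 1. Downstream the same shares were 42.8% against 25% and 49.2% against 19.8%. The domains of 20 to 50 kb thus stood near the background of all shared regions on the downstream side and below it on the TSS side, and nothing particular to them is read from either share. Both edges lay farther out in both NPM1 KD libraries in 183 domains, and both lay farther out in both CTR libraries in 8. Differences of group means above 1 kb were seen downstream in 145 domains in the direction of NPM1 KD and in 8 in that of CTR, and on the TSS side in 40 and 2. The counts for both edges and for differences above 1 kb were taken in the 1966 domains only. Without the matching shares over all 16174 regions, nothing particular to the domains is read from them.

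The limma test of arm length (log2 of the distance from the opposite merged edge to the edge of the library), fitted over all 16174 regions with Benjamini-Hochberg adjustment, called no region on either side in either direction (0% each). At an unadjusted p under 0.05, 1085 downstream arms were longer (6.71%) and 183 shorter (1.13%) in NPM1 KD, and 1069 TSS-side arms were longer (6.61%) and 150 shorter (0.927%). Among the 1966 domains these counts were 30 and 1 downstream and 55 and 0 on the TSS side, and the smallest adjusted p-values were 0.303 and 0.275. The scale is one of ratios, so a shift of a given number of bp counts for less in a wide domain than in a narrow region.

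The position of the TSS-side edge relative to the TSS separated domains with unlike values. The classes were set after the data were seen and use the mean position of the 4 libraries, in which both groups weigh the same. This mean includes the compared edges. A class near the TSS therefore tends to leave out domains in which a library reached far from the TSS. The values by class depend in part on this choice. In 817 domains (41.6%) this mean lay within 500 bp of the annotated TSS, with 419 just upstream of it and 398 just inside the gene. At these edges CTR 1 and CTR 2 had medians of 23.0 and −27.2 bp, NPM1 KD 1 and NPM1 KD 2 had medians of 37.5 and −39.2 bp, and the groups interleaved. Both libraries of replicate number 1 lay farther out here than both of number 2. The median difference was 0.5 bp (exact permutation p = 1), with both NPM1 KD libraries beyond in 124 domains (15.2%) and both CTR libraries beyond in 83 (10.2%). This median joins subclasses with medians of opposite sign. The 419 edges just upstream of the TSS had a median difference of 14 bp, with 23.2% NPM1 KD beyond and 7.64% CTR beyond. The 398 edges just inside the gene had −12.8 bp, with 6.78% NPM1 KD beyond and 12.8% CTR beyond. These subclasses are set by a mean that includes the compared edges. A library that reaches farther upstream also moves this mean upstream, so the opposite signs can follow from the split. No movement in opposite directions is read from them.

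In the other 1149 domains the TSS-side medians were 6.75 and −75.8 bp for CTR 1 and CTR 2, and 54.8 and 28.8 bp for NPM1 KD 1 and NPM1 KD 2. Both NPM1 KD libraries stood beyond both CTR libraries, as they did downstream. The median difference was 84 bp (exact permutation p = 0.333), with both NPM1 KD libraries beyond in 401 domains (34.9%) and both CTR libraries beyond in 57 (4.96%). NPM1 KD 2 lay a median of 17 bp beyond CTR 1, the pair of higher background, and NPM1 KD 1 lay 128 bp beyond CTR 2. At the edges within 500 bp of the TSS the same pairs gave −64 and 62 bp, so the median of 0.5 bp there joins opposite signs. When domains were classed by the outermost instead of the mean edge, the shares within 500 bp of the TSS were 11.2% and 11.4%, and by the innermost edge 18% and 10.0%.

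The same 817 domains did not stand apart at their other end. Their downstream edge lay a median of 169 bp farther out in NPM1 KD, with both NPM1 KD libraries beyond in 299 (36.6%), against 146 bp and 32.1% in the other 1149. Among the regions that are no members, a TSS-side edge within 500 bp of the TSS gave 20.8% with NPM1 KD beyond and 7.25% with CTR beyond (n = 3147), and one elsewhere 33.8% and 6.97% (n = 11061). The contrast between the edges at and away from the TSS was therefore also present outside the width limits, with a smaller gap.

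Finer classes differed likewise. Edges 500 bp to 2 kb upstream of the TSS (n = 334) had the largest share of the 5 classes with both NPM1 KD libraries beyond, 40.7%, and a median difference of 130 bp. Those over 2 kb upstream (n = 185) had 34.1% and 121 bp. Edges over 5 kb inside the gene (n = 544) had 34.6% and 62.2 bp, whereas those 500 bp to 5 kb inside (n = 86) had 16.3% and 8.5 bp, close to the class at the TSS. On the downstream side of the same classes the share ran only from 28.1% to 36.6%.

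**Figure D2:**
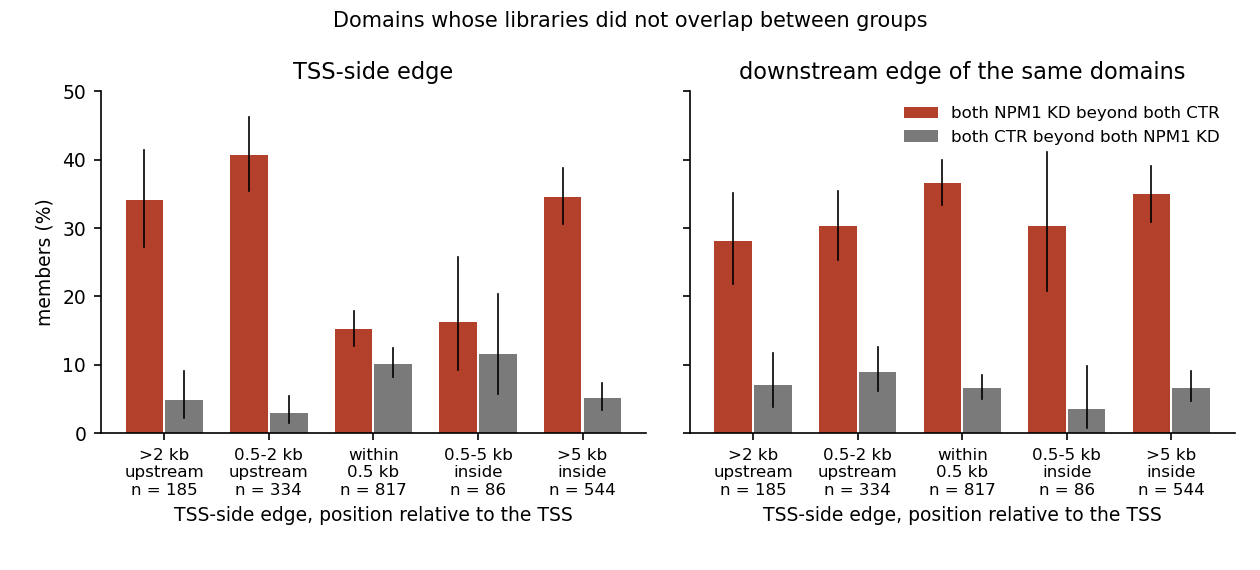
Share of domains in percent (vertical axis) whose libraries did not overlap between groups, by the position of the TSS-side edge relative to the TSS (horizontal axis), for the TSS-side edge (left) and the downstream edge of the same domains (right). Red bars are domains with both NPM1 KD libraries beyond both CTR libraries, grey bars the opposite, and lines are exact 95% binomial intervals. The red bar is shortest within 500 bp of the TSS on the left (15.2%) and is 36.6% for those domains on the right.

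Edges at the TSS were also the most alike between libraries. The range over the 4 libraries had a median of 134 bp for TSS-side edges within 500 bp of the TSS, 349 bp for the other TSS-side edges and 635 bp downstream. All 4 libraries agreed within 100 bp at 289 of the 817 TSS edges (35.4%), at 163 of the other 1149 (14.2%) and at 127 of the 1966 downstream edges (6.46%). The class at the TSS is set by the mean of the same 4 positions, which itself favours a small range. A smaller range leaves less room for a difference between groups in bp, and the part of this in the classes above was not tested.

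Among the 544 domains that began over 5 kb inside the gene, 77 had their TSS-side edge within 500 bp of another annotated transcript start of the same gene. Their median difference was 2.5 bp, with NPM1 KD beyond in 17 (22.1%) and CTR beyond in 3. In the 467 others it was 77.0 bp, with NPM1 KD beyond in 171 (36.6%) and CTR beyond in 25. Downstream edges near an annotated transcript start (n = 90) had a median difference of 158 bp, against 153 bp for the remaining 1876.

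**Figure D3:**
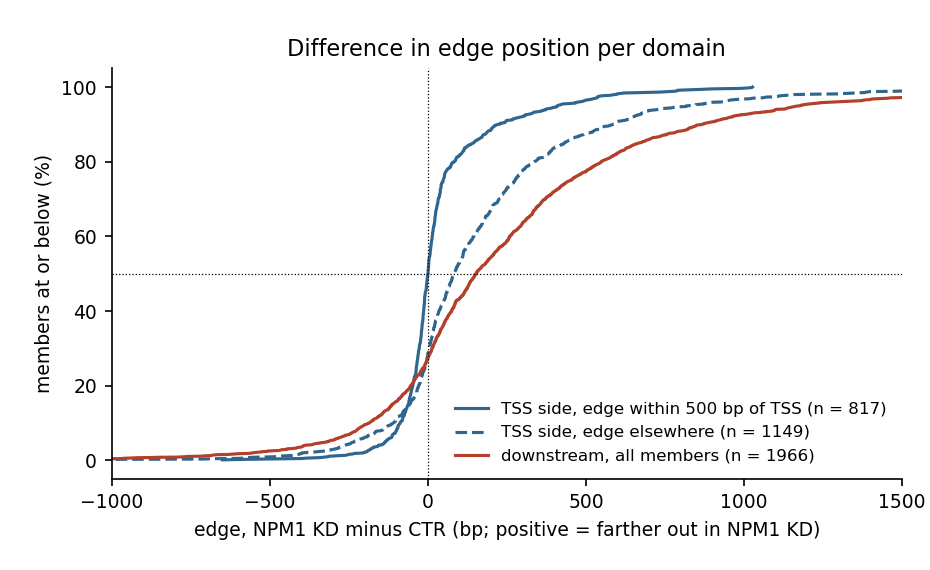
Cumulative share of domains in percent (vertical axis) against the edge position in NPM1 KD minus CTR in bp (horizontal axis, positive where NPM1 KD reached farther out), for TSS-side edges within 500 bp of the TSS (n = 817), TSS-side edges elsewhere (n = 1149) and all downstream edges (n = 1966). The first curve is steep and crosses 50% at 0.5 bp, and the others cross it at 84 and 153 bp.

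The base composition differed between these edges as well. In windows of 1000 bp centred on the edge, TSS-side edges within 500 bp of the TSS had a median G and C content of 61.8% and an observed to expected CpG ratio of 0.799. The other TSS-side edges had 44.6% and 0.221, downstream edges 43.7% and 0.202, and domain centres 42.9% and 0.181. Windows 5 kb outward of the downstream edge had 43.9% and 0.195. The downstream edges thus resembled both the domain interior and the DNA beyond, and the edges at the TSS had the highest CpG ratio of the places measured. Downstream edges with NPM1 KD beyond (43.2%, n = 668) and with CTR beyond (44.2%, n = 136) had like medians of G and C content. Since base composition can affect read recovery, it moves with the classes above, and its part in them was not tested.

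Downstream, NPM1 KD lay farther out in each of the following contexts. The median difference was 150 bp where the next region was at least 1 kb away (n = 873) and 156 bp where it was nearer (n = 1093). Edges that had passed the annotated gene end gave 258 bp (n = 171) and those inside the gene 146 bp (n = 1795). By gene length the medians were 202 bp in genes under 50 kb (n = 719), 173 bp in genes of 50 to 100 kb (n = 563) and 118 bp in longer genes (n = 684), with both NPM1 KD libraries beyond in 32.0%, 34.8% and 35.4%. By width, shared regions of 10 to 20 kb (n = 2558) gave 178 bp and 33.1%, and those of 50 kb upward (n = 692) gave 132 bp and 31.8%.

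Movement of the outer edges was the smaller part of what the libraries lacked. The bases of a merged domain that a library did not cover lay short of the TSS-side edge, short of the downstream edge or in gaps between its peaks. Uncovered bases averaged 1702 and 2309 per domain in CTR 1 and CTR 2 and 746 and 1131 in NPM1 KD 1 and NPM1 KD 2, without overlap between the groups (exact permutation p = 0.333). Of the 1067 bp fewer in NPM1 KD, 687 bp (64.4%) were gaps between peaks, 263 bp (24.6%) the downstream end and 117 bp (11%) the TSS-side end.

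A domain was 1 unbroken peak in 37.0% and 45.2% of cases in CTR 1 and CTR 2 and in 64.8% and 50.8% in NPM1 KD 1 and NPM1 KD 2. The downstream edge belonged to the longest peak of the domain in 46.6% and 53.9% in CTR and in 71.3% and 61.2% in NPM1 KD. The TSS-side edge belonged to it in 78.5% and 82.7% in CTR and in 90.3% and 82.0% in NPM1 KD, where the groups overlapped. Where a separate peak set the downstream edge, it was short, with a median of 1457 to 2140 bp over the 4 libraries, and weak, with a median deposited fold of 2.05 to 2.26, against 5.72 to 6.02 for the longest peak. The ends along transcription were thus made of weak pieces more often than the starts.

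**Figure D4:**
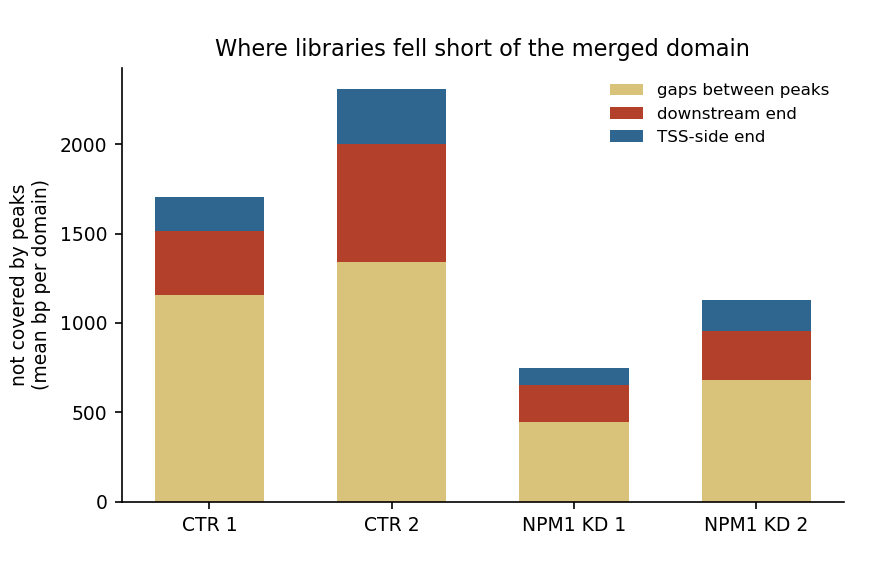
Mean number of bp per domain (vertical axis) inside the merged domain but outside the peaks of each library, stacked as gaps between peaks, the downstream end and the TSS-side end. The totals are 1702 and 2309 bp in the CTR libraries and 746 and 1131 bp in the NPM1 KD libraries, and gaps are the largest part in each.

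Single domains show the range of patterns. The largest downstream gaps, measured from the outermost CTR to the innermost NPM1 KD library among domains with the TSS inside, were in Gpr107, Wee1, Fbxo30, Ergic2, Tbc1d15 and Atad2b. Gpr107 (chr2:31151016-31178506, plus strand, ENSMUSG00000000194.13) encodes a transmembrane protein of the Golgi and endosomes. Its downstream edge lay 23750 and 23804 bp from the TSS in CTR 1 and CTR 2 and 25912 and 26191 bp in NPM1 KD 1 and NPM1 KD 2, all in introns of a gene of 66460 bp. The gap was 2108 bp, and the next merged region began 448 bp farther on.

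Wee1 (chr7:110120731-110146333, plus strand) encodes the kinase that restrains CDK1 before mitosis. Its domain ended 20901 and 20575 bp from the TSS in CTR, just short of the gene end at 21241 bp, and 24288 and 22940 bp from it in NPM1 KD, past the gene end. On its TSS side the order was mixed, at −1315 and −106 bp in CTR and −188 and −52 bp in NPM1 KD. The groups thus overlapped at the TSS-side edge of Wee1 and not at its downstream edge.

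Fbxo30, an F-box subunit of ubiquitin ligases, ended 24113 and 24263 bp from the TSS in CTR and 26089 and 26583 bp in NPM1 KD, beyond the end of a gene of 16723 bp in all 4 libraries. Ergic2, a protein of the compartment between endoplasmic reticulum and Golgi, ended at 19709 and 19574 bp in CTR and 21698 and 21435 bp in NPM1 KD. The domains of these genes also overlapped 1 (Gpr107, Fbxo30) or 2 (Wee1, Ergic2) annotated genes of other biotypes. No such gene lay in the domains of Tbc1d15 and Atad2b.

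Tbc1d15 (chr10:115218735-115252207, minus strand) encodes a GTPase-activating protein for Rab7. Its downstream edge lay at 30477 and 30322 bp in CTR and at 32173 and 32733 bp in NPM1 KD, and its TSS-side edge at −363 and −161 bp in CTR and −272 and −740 bp in NPM1 KD. Atad2b (chr12:4916723-4944460, plus strand), a bromodomain ATPase, ended at 25166 and 23254 bp in CTR and at 27108 and 26837 bp in NPM1 KD. Atad2b also began farther out in NPM1 KD, at −630 and −560 bp against 18 and 11 bp.

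Large TSS-side gaps were found in Wdr26, Sos1 and Pou2f2. Wdr26 (chr1:181175448-181221097, minus strand), a subunit of the CTLH ubiquitin ligase, began −4985 and −4615 bp from the TSS in CTR and −9096 and −8896 bp in NPM1 KD. A further merged region lay 107 bp beyond, so this edge is a boundary between calls. Its downstream edges were at 35723 and 35835 bp in CTR and 35789 and 36554 bp in NPM1 KD, where the groups overlapped.

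Sos1 (chr17:80445797-80482761, minus strand), an exchange factor that activates Ras, began at −294 and −514 bp in CTR and −2203 and −2308 bp in NPM1 KD, with no other region for 165525 bp upstream. The TSS-side edge of Sos1 thus lay within or close to 500 bp of the TSS in CTR and over 2 kb upstream of it in NPM1 KD.

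Pou2f2, a POU-domain transcription factor, began at 199 and 204 bp in CTR and at −1267 and −1280 bp in NPM1 KD. Its downstream edges were close to each other, at 20899 and 21042 bp in CTR and 20805 and 20898 bp in NPM1 KD. In Sos1 the downstream edges overlapped between groups, at 34574 and 33362 bp in CTR and 34657 and 34560 bp in NPM1 KD, so none of these 3 domains had a matching gap downstream.

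The largest gaps in the opposite order were smaller. With the TSS inside, this order held 78 domains against 341 downstream and 67 against 304 on the TSS side. A largest value among fewer domains tends to be smaller, so no difference in size is read from these extremes. Among domains with the TSS inside, the largest downstream gaps in favour of CTR were 989 bp in Cstf3, a subunit of the cleavage stimulation factor, and 600 bp in Ptpn23, an ESCRT-associated phosphatase family member. Cstf3 ended at 34080 and 34369 bp in CTR and at 32994 and 33091 bp in NPM1 KD. On the TSS side the largest such gaps were 289 bp in Dnaja2, an Hsp40 co-chaperone, and 235 bp in Sel1l3.

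Domains with a small spread showed how closely calls can agree. In Cntn3 (chr6:102541449-102573150, minus strand), a contactin of the neuronal cell surface, the TSS-side edge lay at −49 and −24 bp in CTR and −39 and −47 bp in NPM1 KD. Its downstream edge lay at 31647 and 31653 bp in CTR and 31613 and 31639 bp in NPM1 KD, deep inside a gene of 410447 bp. Every library held it as 1 peak. The spread of both edges together was 65 bp in Cntn3 and 70 bp in Map3k2, a kinase of the MAP kinase cascade.

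**Figure D5:**
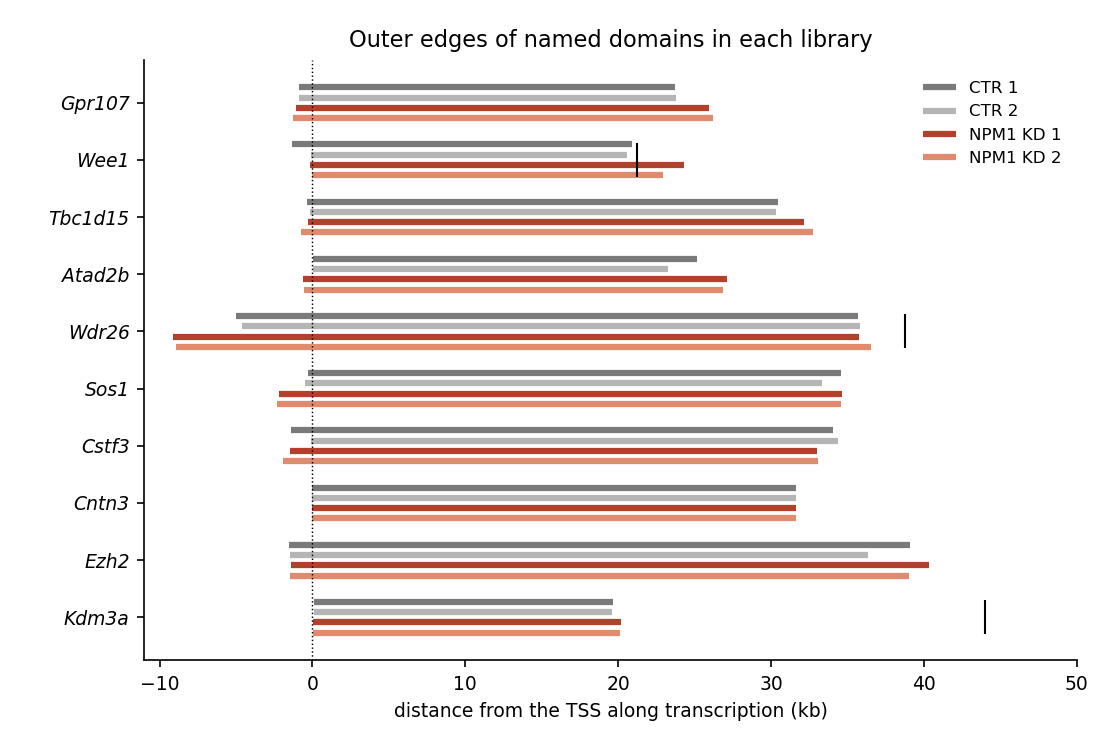
Outer extent of named domains in each library, in kb from the TSS along transcription (horizontal axis; grey CTR 1 and 2, red and orange NPM1 KD 1 and 2), with gaps between peaks not drawn and a vertical tick at the annotated gene end where it lies within 45 kb. Gpr107, Wee1, Tbc1d15 and Atad2b end farther out in NPM1 KD, Wdr26 and Sos1 begin farther out, Cstf3 ends farther out in CTR, and Cntn3 has the same extent in all 4.

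Of the genes the study centres on, 2 had a domain within the limits. Ezh2 (chr6:47555021-47596894, minus strand), the catalytic subunit of Polycomb repressive complex 2, began at −1553 and −1447 bp in CTR and −1422 and −1456 bp in NPM1 KD. It ended at 39066 and 36316 bp in CTR and 40321 and 39053 bp in NPM1 KD, so the groups overlapped at both edges and CTR 2 stood alone downstream. Ezh2 was 1 peak in NPM1 KD 1, 2 in CTR 2 and 3 in CTR 1 and NPM1 KD 2.

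Kdm3a (chr6:71612815-71632979, minus strand), an H3K9 demethylase, ended at 19639 and 19625 bp in CTR and 20176 and 20092 bp in NPM1 KD. It began at 102 and 121 bp in CTR and 11 and 67 bp in NPM1 KD. Both edges of this Kdm3a domain lay farther out in NPM1 KD, by gaps of 453 and 35 bp. A further shared region of Kdm3a (16742 bp) began 431 bp beyond its downstream edge, so that edge is a boundary between calls inside the gene. The domains of Npm1 (14420 bp) and Ezh1 (11384 bp) were too narrow, and those of Dot1l and Ctcf spanned several protein-coding genes.

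At the width limits, Usp44 and Trp53bp1 (20004 bp each) lay just inside the lower one, and Akt1 (19991 bp) and Gnb4 (19987 bp) just outside. At the upper limit, Kpna3 (49972 bp) and Ppp2r2b (49983 bp) lay inside, and Trim24 (50072 bp) and Stxbp5 (50106 bp) outside. Trp53bp1, a scaffold of the response to DNA breaks, shows a domain that began inside its gene: its TSS-side edge lay at 24880 and 25684 bp in CTR and 23847 and 23690 bp in NPM1 KD.

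By gene group, the counts with both NPM1 KD libraries beyond both CTR libraries are descriptions, read beside 34.0% downstream and 26.7% on the TSS side over all domains. DNA replication, repair and cell cycle genes had 9 of 17 domains downstream and 7 on the TSS side, with median differences of 357 and 97 bp. The downstream edges of its widest domains, Top1 (DNA topoisomerase I) and Rev3l (the catalytic subunit of polymerase zeta), differed by −19.5 and 63.5 bp. Chromatin writers, erasers and remodellers had 10 of 37 downstream and 16 on the TSS side. Their widest domains were those of Ehmt1, an H3K9 methyltransferase, with differences of 340 bp downstream and 276 bp on the TSS side, and Smarcad1, a remodeller, with −38.0 and 492 bp.

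RNA polymerase II elongation genes and DOT1L partners had the lowest downstream share of the 10 groups, 2 of 11, and a median difference of 79 bp. Their widest domains were those of Cdk13, a kinase of the polymerase C-terminal domain, at 58.5 bp, and Ell, an elongation factor, at −393 bp, where CTR lay farther out on average. Sequence-specific transcription factors had 14 of 50 downstream and 18 on the TSS side, with Nr2c2 at 87.5 bp and Zbtb20 at −222 bp downstream. Neuronal adhesion, cytoskeleton and axon guidance genes had 6 of 30 downstream, 5 in the opposite order and a median of 8.5 bp. There Clasp2, a microtubule plus-end protein, was in 9 and 5 pieces in CTR and in 2 in each NPM1 KD library, with a downstream difference of 127 bp, and Actn4 was 1 peak in all 4.

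The remaining groups lay between these. Kinases and phosphatases had 15 of 51 downstream (Camk2d at −51.0 bp, Ptk2 at 235 bp), membrane traffic 13 of 44 (Rab28 at −74.0 bp, Picalm at 10.5 bp) and nuclear transport and nucleolus 7 of 25 (Kpna3 at 120 bp, Ranbp2 at 454 bp). Splicing and RNA binding genes had 7 of 19 (Hnrnpr at −17.0 bp, Srrm1 at −468 bp), and ubiquitin ligases and deubiquitinases 11 of 32 (Cbl at −240 bp, Usp7 at 1149 bp). In every group more domains had NPM1 KD beyond than CTR beyond on both sides. Most of these widest domains differed by less than the spread between libraries: of the 20, Rev3l, Ptk2 and Ranbp2 had both NPM1 KD libraries beyond both CTR libraries downstream, and Zbtb20 and Srrm1 the reverse.

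Under a stricter list of broad peaks, those whose −log10 q reached 5, 1797 domains still had a peak in each library and the downstream difference was 347 bp. This is the setting in which limma made calls: 37 of 6768 regions were longer downstream in NPM1 KD (0.547%) and 4 shorter (0.0591%), and 11 of the longer ones were domains of 20 to 50 kb. They lay in Pkia, Nelfa, Btbd10, Rbbp6, Pdcd6ip, Hace1, Ogdh, Cdk12, Paip1, Cd2ap and Sh3pxd2a. The downstream arm of Pkia, an inhibitor of protein kinase A, measured 12328 and 12064 bp in CTR and 33109 and 33244 bp in NPM1 KD (limma adjusted p = 0.0197). That of Cdk12, a kinase of the polymerase C-terminal domain, measured 22777 and 22801 bp in CTR and 34105 and 33734 bp in NPM1 KD (limma adjusted p = 0.0296), and that of Nelfa, a subunit of the pausing factor NELF, 20895 and 20825 bp against 27819 and 27753 bp (limma adjusted p = 0.0296).

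These differences were not present with all broad peaks. The arms were then 33305, 33364, 33109 and 33244 bp in CTR 1, CTR 2, NPM1 KD 1 and NPM1 KD 2 for Pkia, 33841, 33536, 34105 and 33734 bp for Cdk12, and 27820, 27687, 27819 and 27753 bp for Nelfa. The distal stretch was thus called in CTR too, by peaks below that limit.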

How the data were processed

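Each of the 4 ChIP libraries (antibody ab3594) had 1 broad and 1 narrow peak list. The authors aligned paired reads to mm10 with Bowtie2 2.3.4.1, removed reads of low mapping quality and called peaks per library with MACS2 (2.2.6 in the submitters' processing notes, an earlier Galaxy version in the methods). The use of the input in calling is not given in the sources used here. The fold enrichment (a ratio), −log10 p-value and −log10 q-value of each peak are used as deposited by the authors.

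Broad peaks sharing 1 bp were merged. The outermost start and end of the peaks of a library in a region were its edges. GENCODE M21 (build of mm10) gave TSS and strand, and GRCm38.p6 the sequences. Named domains are the largest gaps, the smallest spreads, those at the width limits, the widest of each of 10 gene lists and 6 study genes. Domains, lists and rules were chosen with earlier results of these data known. Positions were compared with exact permutation tests (scipy 1.17.1), and arm lengths with limma 3.58.1 in R 4.3.3, tested on simulated data first. Python 3.11.15, numpy 2.4.6, pandas 2.3.3 and matplotlib 3.10.9 were used. The background pileup, the class limits around the TSS and the comparison within libraries of higher and of lower background were added after the data were seen. Background pileup came from solving fold and p of every 10th narrow peak. Domains that fall under these rules but are withheld are not reported here.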

Additional observations from a re-analysis of the deposited data

How the results depend on the processing

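With 2 libraries per group no permutation p can fall below 0.333, so for the medians the alternatives bear on direction and size. The downstream median difference was 36 to 347 bp and the downstream minus TSS-side difference 33.0 to 292 bp over the alternatives run, all positive. The TSS-side difference reversed to −4.5 bp without CTR 2 and to −27.0 bp between the libraries of higher background, and was otherwise 0.5 to 117 bp. Leaving out 1 library gave 50.2 to 231 bp downstream, −4.5 to 60.2 bp on the TSS side and 33.0 to 132 bp for their difference. With the replicate block (same-numbered libraries paired) these values equal the unpaired ones (153, 27.2 and 90.2 bp) by construction, and limma with the block called 0 regions. Same-numbered deviations correlated at −0.00052 (TSS side) and 0.070 (downstream), below the level taken here as pairing. The library medians were nevertheless ordered by number: number 1 lay farther out than number 2 in both groups and on both sides. The methods tie a replicate to its own passage and transfection batch without saying that a batch was shared between groups. Whether this order comes from a shared batch was not tested.

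The share with both NPM1 KD libraries beyond was 30.4% downstream and 24.0% on the TSS side with the narrow lists, 37.0% downstream at −log10 q of at least 5, 39.3% downstream for the widest run after joining gaps of 1 kb, and 28.9% on the TSS side with the TSS inside. It was 24.7% on the TSS side with the next region at least 1 kb away, and 15.2% and 34.9% for edges within and not within 500 bp of the TSS. The opposite share was 5.34% downstream for the widest run, 9.77% on the TSS side with the narrow lists, and 10.2% and 4.96% within and not within 500 bp of the TSS. Without 1 library the first share was 42.8% to 62.4% downstream and 31.6% to 55.3% on the TSS side, and the opposite 12.7% to 25% and 11.7% to 34.4%, because fewer libraries are compared. At −log10 q of at least 5 limma called 37 longer and 4 shorter downstream arms, against 0 with all peaks. Comparisons by background, by distance to the next region and by distance to the TSS were chosen after seeing the data.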
